A study of Mus musculus with 8 samples.

Results

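Aminoacyl-tRNA synthetases, the enzymes that join each amino acid to its tRNA, were examined in mouse hematopoietic stem cells (HSCs) sorted by size. Members were the genes whose symbol is a synthetase name (Aars, Cars, Dars and so on to Yars), alone or followed by 1, 2 or l2. The rule found 38 of the 50686 genes counted: 20 cytosolic enzymes, 17 mitochondrial enzymes whose symbol ends in 2, and Tarsl2. Tarsl2 ends in 2 but encodes a cytosolic threonyl-tRNA synthetase, so it was kept out of both classes. HSCs are the marrow cells from which all blood lineages form, and the study asked how their expression differs with cell size. Cells came from C57BL/6J marrow depleted of lineage-positive cells and were gated with antibodies to CD117, Sca-1, CD48 and CD150, with 10000 G0/1 cells per RNA library. Large HSCs were the upper 10% by size, Medium HSCs those within 10% of the mean size, Small HSCs the lower 10%, and All HSCs had no size gate. Every group held 2 libraries, whose titles carry the numbers 1 and 2. The labels give no treatment, genetic change or age for these mice, and nothing ties the 2 libraries of a group to separate animals. A p-value here covers the spread between libraries alone, and part of that spread may be technical.

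Cytosolic synthetases charge tRNAs for the ribosomes that translate nuclear-encoded mRNAs. Most mitochondrial synthetases are separate nuclear genes, whose products are imported to charge tRNAs for the few proteins made inside mitochondria. In mammals several cytosolic enzymes (Dars, Eprs, Iars, Kars, Lars, Mars, Qars and Rars) sit together in the multisynthetase complex, held by the scaffold proteins Aimp1, Aimp2 and Eef1e1. Gars and Kars each supply both compartments from a single gene, and Eprs joins glutamyl- and prolyl-tRNA synthetase in 1 protein. Several cytosolic synthetase genes are known targets of ATF4, the transcription factor of the amino acid response, which binds C/EBP-ATF elements.

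Promoter letters are shown first. RefSeq promoter windows (250 bases before to 50 after the start, GRCm38.p6) were matched for 28 of the 38 genes: 13 cytosolic, 14 mitochondrial and Tarsl2. The C/EBP-ATF element was searched as TGATGNAA on both strands, a motif that includes TGATGCAA. It was present for 5 of 13 cytosolic genes (Aars, Gars, Iars, Tars and Yars), for 0 of 14 mitochondrial genes, and in 3.97% of all 32851 windows. Each gene was counted once, also where several windows matched, as for Aars2. The stricter TGATGCAA was present in the same genes other than Gars, and in 0.895% of all windows. All 5 genes were among the 8 with a window on a list of reported ATF4 targets, and none of the 5 other cytosolic windows held the motif. At a share of 3.97% over all windows, 0 of 14 and 0 of 5 do not set those genes apart. The matches before the start are printed on the gene's strand, with up to 26 bases on either side and the match in capitals.
Aars, chr8:111033704-111033763, plus strand: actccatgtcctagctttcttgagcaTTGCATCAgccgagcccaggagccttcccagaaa
Gars, chr6:55037945-55038000, plus strand: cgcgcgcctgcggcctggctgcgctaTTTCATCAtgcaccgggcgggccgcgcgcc
Tars, chr15:11399659-11399699, minus strand: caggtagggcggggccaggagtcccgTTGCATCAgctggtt
Each carries the element in reverse orientation, 104, 22 and 7 bases before the RefSeq start in Aars, Gars and Tars. In GENCODE M21 the Aars gene begins further upstream, at chr8:111033144, so its match lies inside that gene. A match describes the letters and not a bound site.

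All 38 genes passed the filter on low counts, and 16066 genes were tested. Library totals ran from 13698362 to 16838448 counts. Among synthetases the lowest single count was 24, for Pars2 in All 2, and the highest 9013, for Lars2 in All 2. Values in CPM (each library's counts brought to a total of 1000000, with TMM factors) are shares of a library and do not give RNA per cell. In bulk samples, fewer cells of a type and less RNA per cell cannot be told apart. The libraries differed by number as well as by gate. Summed over 15 granulocyte and monocyte genes, all of them detected, the level was 46879 and 23629 CPM in Large 1 and Large 2, 25108 and 8590 CPM in Medium, 45432 and 12893 CPM in Small, and 57385 and 3587 CPM in All. Of the genes that define the sort, Kit had 512 to 1195 CPM over the libraries, Ly6a (Sca-1) 20.4 to 365 CPM and Slamf1 (CD150) 7.57 to 22.6 CPM. Cd48, which HSCs lack at the surface, had 12.0 to 159 CPM. Large 1 held the lowest Kit, Ly6a and Slamf1 values and the highest Cd48 value. The part of this in the synthetase values was not tested.

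Compared per transcript length, in TPM (transcript abundances scaled to a total of 1000000), cytosolic synthetases were the more abundant class. Their mean TPM over 8 libraries ran from 40.4 (Aars, alanyl) to 182 (Dars, aspartyl), with a median of 79.2. Mitochondrial genes ran from 3.62 TPM (Mars2, methionyl) to 119 TPM (Lars2, leucyl), with a median of 31.005. Lars2 stood apart, since the next mitochondrial gene, Tars2 (threonyl), averaged 72.3 TPM. The SD of log2 CPM over the 8 libraries had a median of 0.29 for cytosolic genes, from 0.16 (Kars) to 0.49 (Aars). For mitochondrial genes the median SD was 0.35, from 0.17 (Fars2) to 1.01 (Pars2).

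**Figure D1:**
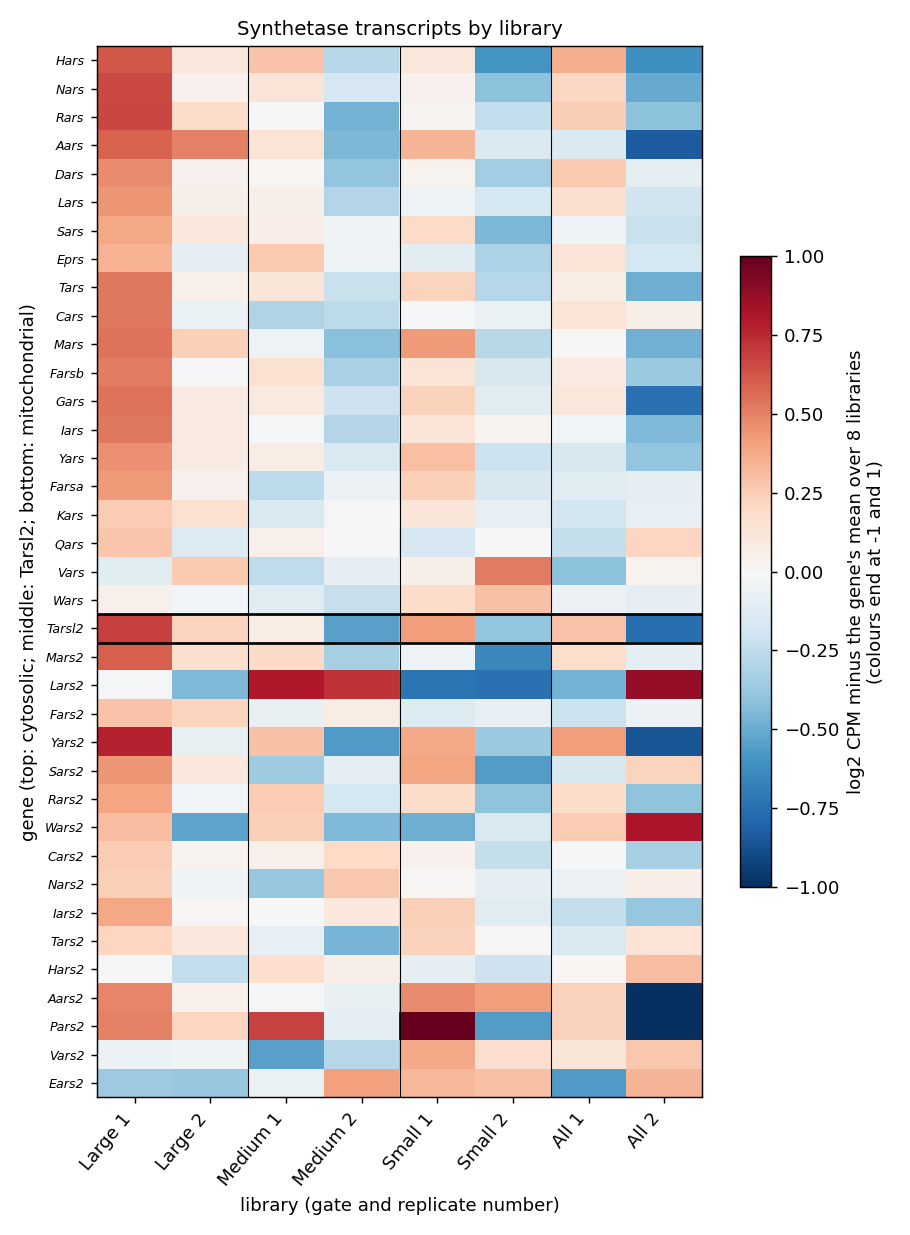
Each row is a synthetase gene and each column a library, grouped by gate with Large at the left. Colour is log2 CPM minus the gene's mean over the 8 libraries, with colours ending at -1 and 1. Large 1 is red for most cytosolic genes (the rows above Tarsl2) and All 2 blue for most, while Lars2 is red in both Medium libraries and All 2.

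Large against Small HSCs gave higher values for most synthetases, but no single gene passed the test. Of 20 cytosolic genes, 18 had a log2 fold change above 0, with a median of 0.29 (0.35 between the libraries numbered 1 and 0.23 between those numbered 2). Of 17 mitochondrial genes, 13 were above 0, with a median of 0.24 (0.19 and 0.27), and the median over all genes tested was 0.00. With edgeR's quasi-likelihood test and Benjamini-Hochberg adjustment, 0 of 38 synthetases were called, against 0% of all genes, and the smallest adjusted p among synthetases was 0.975. None had an unadjusted p under 0.05, against 1.77% of all genes higher and 1.38% lower. On simulated counts with the spread of these data, the adjusted test recovered 0 of 200 genes changed 2-fold. Both Large libraries lay above both Small libraries for 6 cytosolic and 3 mitochondrial genes, 9 of 38, against 17.7% of all genes. They lay below for 1 cytosolic and 2 mitochondrial genes, against 14.7%. Within both numbers Large was the higher library for 17 cytosolic genes and the lower for 2, against 32.9% and 30.9% of all genes. For mitochondrial genes these counts were 10 and 2.

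The cytosolic median rested on 4 libraries. Without Large 1 it was 0.07, with 11 of 20 genes above 0, and without Small 2 it was 0.17, with 17 above 0. Without Large 2 it was 0.48 and without Small 1 it was 0.45, each with 18 above 0. The mitochondrial median was -0.04 without Large 1 and 0.00 without Small 2. Scaling moved the size as well. On log2(TPM + 1) the median of all genes was -0.11 and that of cytosolic genes 0.15, a difference of 0.26, with 17 of 20 above 0 and Qars, Vars and Wars below. Mitochondrial genes had a median of 0.02 on that scale, 0.13 above all genes.

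**Figure D2:**
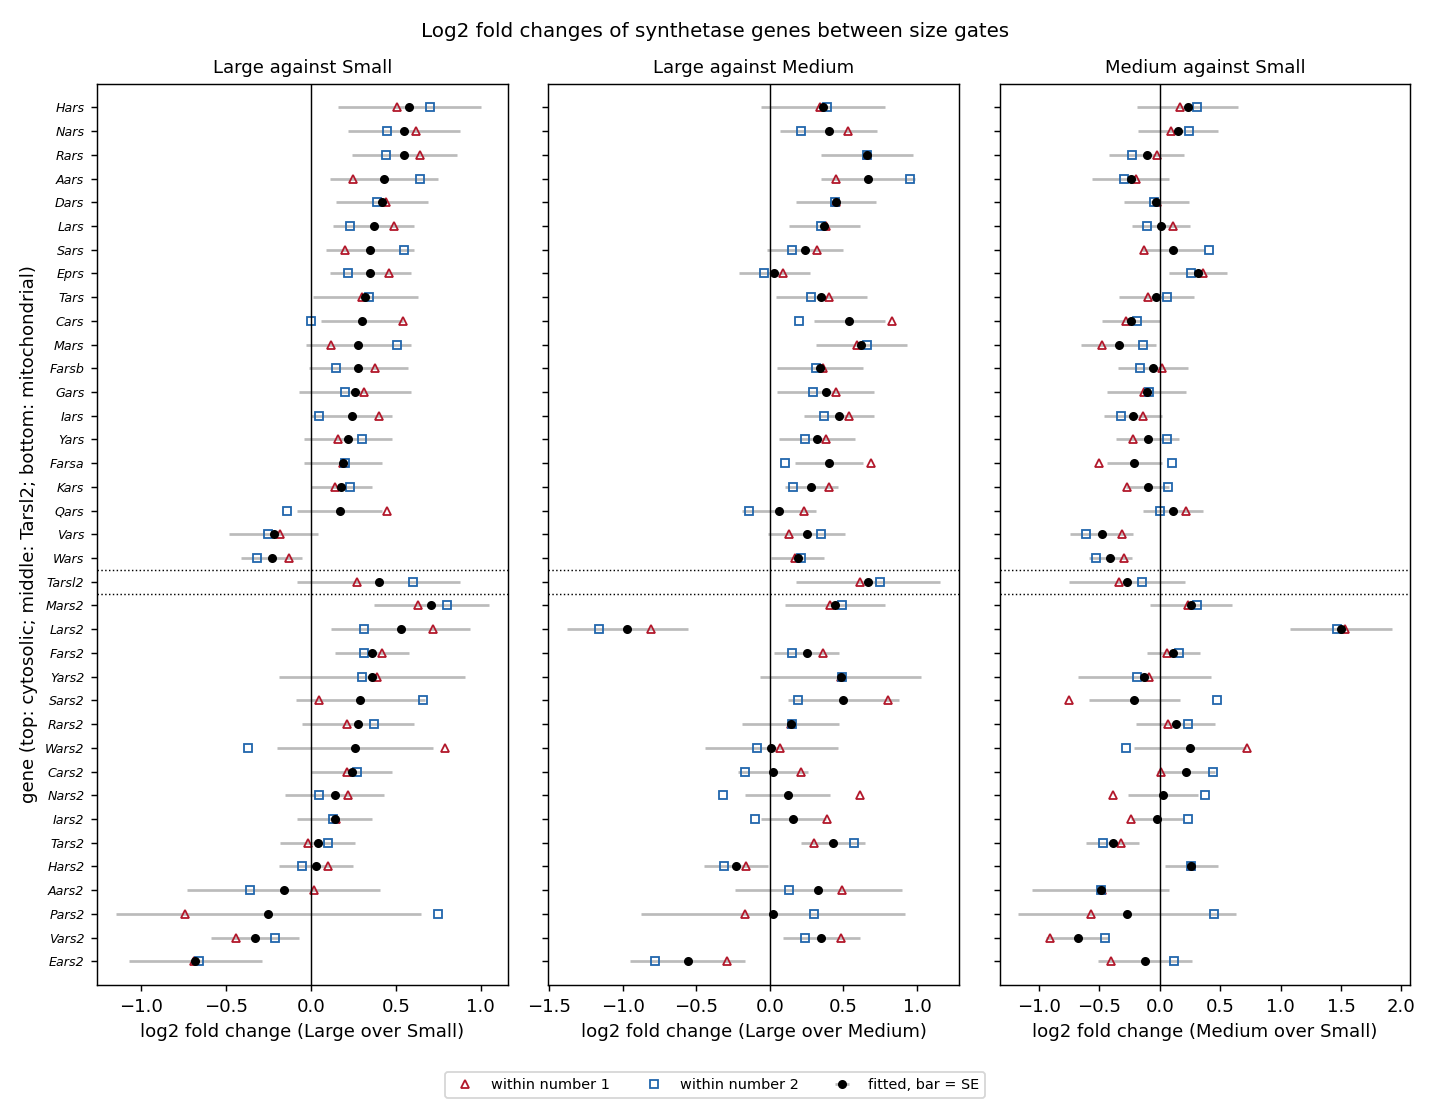
Log2 fold changes of the synthetase genes, Large against Small at the left, Large against Medium in the middle and Medium against Small at the right. Black points are fitted values with bars of 1 SE, and open symbols are the fold changes within each number. Most cytosolic genes lie above 0 in the left and middle panels, and Lars2 lies at 1.5 in the right panel.

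Enzymes of the multisynthetase complex lay above 0 in 8 of 8 cases, with a median log2 fold change of 0.32 for Large against Small. The 12 cytosolic genes outside the complex had a median of 0.29, with 10 above 0. Rars, the arginyl enzyme (chr11:35808381-35834506, GRCm38), had 174 and 125 CPM in Large, 110.2 and 78.9 CPM in Medium, 112 and 92.4 CPM in Small, and 130.0 and 82.7 CPM in All. Both Large libraries were above both Small and both Medium libraries. The log2 fold change of Large against Small was 0.55 (SE 0.31), and 0.27 without Large 1.
Dars, the most abundant member per length, had 374 and 277 CPM in Large, 273 and 205 CPM in Medium, 276 and 212 CPM in Small, and 322 and 253 CPM in All. Large 2 lay barely above Small 1, and the log2 fold change was 0.42 (SE 0.27). It was 0.14 with offsets for GC content and length, 0.16 without Large 1 and 0.24 without Small 2 or on log2(TPM + 1). Lars, the cytosolic leucyl enzyme, which is also known as a leucine sensor for mTORC1, had 173 and 132 CPM in Large, 133 and 104 CPM in Medium, 123 and 113 CPM in Small, and 143 and 111 CPM in All. Large and Small did not overlap, and the log2 fold change was 0.37 (SE 0.24), with 0.15 without Large 1, 0.56 without Large 2 and 0.19 on log2(TPM + 1).

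Eprs, which charges both glutamate and proline, had 300.4 and 221 CPM in Large, 282 and 228 CPM in Medium, 219 and 189.5 CPM in Small, and 257 and 208 CPM in All. Large and Medium overlapped, and both lay above Small, by a log2 fold change of 0.35 (SE 0.24) for Large and 0.32 (SE 0.24) for Medium. The value for Large was 0.09 without Large 1, 0.56 without Large 2 and 0.15 on log2(TPM + 1). Qars, the glutaminyl enzyme, had 88.6 and 66.5 CPM in Large, 75.7 and 73.3 CPM in Medium, 65.0 and 73.3 CPM in Small, and 62.2 and 84.8 CPM in All. The 4 groups overlapped. Kars, the lysyl enzyme of both compartments, had 191 and 178 CPM in Large, 144 and 159 CPM in Medium, 174 and 151 CPM in Small, and 139.9 and 151 CPM in All. Large was the highest group, with a log2 fold change over Small of 0.18 (SE 0.18). All 3 scaffold genes had positive log2 fold changes: Aimp1 0.57 (SE 0.34), Aimp2 0.46 (SE 0.42) and Eef1e1 0.43 (SE 0.59).

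Outside the complex, Hars (histidyl) and Nars (asparaginyl) had the largest log2 fold changes of Large over Small among cytosolic genes together with Rars. Hars had 181 and 126 CPM in Large, 143 and 96.6 CPM in Medium, 128 and 77.7 CPM in Small, and 151 and 76.8 CPM in All. Its log2 fold change was 0.58 (SE 0.42), and Large 2 lay below Small 1. It was 0.28 without Large 1, 0.27 without Small 2 and 0.98 without Small 1. Nars had 303 and 197 CPM in Large, 209.6 and 170.5 CPM in Medium, 198 and 145 CPM in Small, and 221 and 135 CPM in All. Its log2 fold change was 0.55 (SE 0.33), and Large 2 again lay just below Small 1. It was 0.18 without Large 1 and 0.34 without Small 2. On log2(TPM + 1) Nars and Rars were both at 0.36. In both genes Large was above Small within each number. Gars, the glycyl enzyme of both compartments, had 296 and 214 CPM in Large, 217 and 176 CPM in Medium, 238 and 187 CPM in Small, and 219 and 121 CPM in All. Large and Small overlapped, with a log2 fold change of 0.26 (SE 0.33). Aars had 193 and 182 CPM in Large, 142 and 94.3 CPM in Medium, 162 and 116 CPM in Small, and 116 and 72.0 CPM in All. Both Large libraries lay above all other libraries, with log2 fold changes of 0.43 (SE 0.32) over Small and 0.67 (SE 0.32) over Medium.

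Wars and Vars were the cytosolic genes with values below 0 for Large against Small. Wars, the tryptophanyl enzyme, known to be induced by interferon gamma (chr12:108860030-108894174), had 89.1 and 84.6 CPM in Large, 79.4 and 73.3 CPM in Medium, 97.7 and 106 CPM in Small, and 82.9 and 81.0 CPM in All. Small was the highest group and Medium the lowest, without overlap. The log2 fold change was -0.23 (SE 0.18) for Large against Small and -0.41 (SE 0.18) for Medium against Small. Vars, the valyl enzyme, which binds the elongation factor eEF1B (chr17:35000987-35016322), had 284 and 371 CPM in Large, 259 and 289.9 CPM in Medium, 322 and 442 CPM in Small, and 233 and 317 CPM in All. It was higher in the libraries numbered 2 in every group, unlike most cytosolic genes, and its log2 fold change was -0.22 (SE 0.26) for Large against Small. With offsets for GC content and length, 19 of 20 cytosolic genes lay above 0, with Wars alone below.

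Numbered libraries of different gates deviated together, so the comparison was repeated with the number as a block. In edgeR the block left 0 synthetases called. Unadjusted p was then under 0.05 for 8 cytosolic and 1 mitochondrial gene, 9 of 38 and all higher in Large, against 9.44% of all genes higher and 7.94% lower. With DESeq2 and the same block, a combination chosen after the data were seen, 5 of 38 synthetases were called higher in Large than in Small, against 6.70% of genes with an adjusted p. None was called lower, against 6.08%. They were Dars (DESeq2 adjusted p = 0.00819), Hars (0.0114), Nars (0.0154), Rars (0.0196) and Mars2 (0.0300). With the block and offsets for GC content and length in edgeR, the adjusted p of Dars was 0.762. The call for these 5 genes thus depended on the tool, and limma-voom with the block called 0.

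Among mitochondrial genes, Mars2, the methionyl enzyme that serves both initiation and elongation in the organelle (chr1:55237177-55248470), had the largest value for Large against Small. It had 42.5 and 31.5 CPM in Large, 32.1 and 22.4 CPM in Medium, 27.4 and 18.0 CPM in Small, and 31.8 and 26.3 CPM in All. Large and Small did not overlap, with a log2 fold change of 0.71 (SE 0.34) and an unadjusted edgeR p of 0.079. The value was 0.45 without Large 1, 0.44 without Small 2 and 0.43 on log2(TPM + 1). Fars2, the phenylalanyl enzyme, had 47.2 and 45.3 CPM in Large, 36.9 and 40.8 CPM in Medium, 35.3 and 36.6 CPM in Small, and 33.4 and 37.4 CPM in All. The size gates followed the order Large, Medium, Small without overlap, and the log2 fold change of Large against Small was 0.36 (SE 0.22), and 0.19 on log2(TPM + 1). Cars2, the cysteinyl enzyme, had 52.0 and 44.5 CPM in Large, 45.02 and 50.1 CPM in Medium, 44.9 and 36.8 CPM in Small, and 43.4 and 34.6 CPM in All. Large overlapped Small slightly, and the log2 fold change was 0.24 (SE 0.24). It was 0.10 without Large 1 or without Small 2, 0.39 without Small 1 and 0.02 on log2(TPM + 1).

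Ears2 and Vars2 went the other way. Ears2 charges glutamate onto the mitochondrial tRNAs for both glutamate and glutamine (chr7:122037213-122067263). It had 13.7 and 13.6 CPM in Large, 16.8 and 23.5 CPM in Medium, 22.2 and 21.6 CPM in Small, and 11.9 and 22.3 CPM in All. Large lay below Medium and Small, with log2 fold changes of -0.68 (SE 0.39) against Small and -0.56 (SE 0.39) against Medium. The subunits of the amidotransferase that then makes glutamine on the tRNA had log2 fold changes of 0.25 (Gatb), 0.11 (Gatc) and 0.07 (Qrsl1) for Large against Small. Vars2, the valyl enzyme (chr17:35655634-35667592), had 24.7 and 24.9 CPM in Large, 17.7 and 21.1 CPM in Medium, 33.5 and 28.9 CPM in Small, and 28.0 and 31.01 CPM in All. By its mean Small was the highest size gate and Medium the lowest, as for Vars. The log2 fold change of Large against Small was -0.33 (SE 0.26) and became 0.01 with offsets for GC content and length. Pars2, the least counted member, had 8.94 and 7.30 CPM in Large and 15.0 and 4.28 CPM in Small, so Small alone spanned both Large libraries.

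Large against Medium HSCs gave the more even picture for cytosolic genes. All 20 had a log2 fold change above 0, with a median of 0.36 (0.40 and 0.28 within numbers 1 and 2), against -0.01 over all genes. On log2(TPM + 1) 18 of 20 were above 0, with Eprs and Qars below. Both Large libraries lay above both Medium libraries for 11 of 20, against 18.3% of all genes, and none lay below, against 17.2%. Within both numbers Large was the higher library for 18 cytosolic genes and the lower for 0, against 32.9% and 33% of all genes. Of 17 mitochondrial genes, 14 were above 0, with a median of 0.16; 6 lay above without overlap and 3 below. No synthetase was called by edgeR, against 0% of all genes, and the smallest adjusted p was 0.989. None had an unadjusted p under 0.05, against 0.878% of all genes higher and 0.996% lower. Without Large 1 the cytosolic median was 0.12 and the mitochondrial median -0.06. Without Medium 2 the cytosolic median was 0.20, and without Large 2 it was 0.58. The mitochondrial median was 0.36 without Medium 1 and 0.34 without Large 2. This comparison shares the Large libraries with the one against Small.

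Cars, the cytosolic cysteinyl enzyme, had 117 and 77.9 CPM in Large, 66.2 and 67.9 CPM in Medium, 80.6 and 77.8 CPM in Small, and 89.8 and 85.2 CPM in All. Medium was the lowest group, with a log2 fold change of Large against Medium of 0.54 (SE 0.24) and an unadjusted edgeR p of 0.056. The difference was larger within number 1 than within number 2, and it was 0.19 without Large 1 and 0.33 on log2(TPM + 1). Rars had a log2 fold change of 0.66 (SE 0.31), with 0.37 without Large 1 and 0.40 without Medium 2. Tars2 had 129 and 119 CPM in Large, 104 and 80.1 CPM in Medium, 130.0 and 111 CPM in Small, and 99.4 and 122 CPM in All. Both Large libraries were above both Medium libraries, with a log2 fold change of 0.43 (SE 0.22) that was 0.21 without Medium 2, while Large and Small overlapped. Tarsl2 had 31.7 and 23.0 CPM in Large, 20.8 and 13.5 CPM in Medium, 26.3 and 15.1 CPM in Small, and 24.0 and 11.7 CPM in All. Its log2 fold change was 0.67 (SE 0.49) against Medium and 0.40 (SE 0.48) against Small.
With DESeq2 and the block, 6 of 38 synthetases were called higher in Large than in Medium, against 4.46% of genes with an adjusted p, and none lower, against 3.43%. Among them were Rars, Mars, Dars, Aars and Iars, with adjusted p from 0.0040 to 0.0412. Mars and Iars fall outside the naming rule and were named after their values were seen. With the block in edgeR, 12 cytosolic and 3 mitochondrial genes and Tarsl2 had an unadjusted p under 0.05, 16 of 38 and all higher, against 8.18% of all genes higher and 6.64% lower, and 0 were called.

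Medium against Small HSCs showed no common direction. Of 20 cytosolic genes 6 had a log2 fold change above 0, with a median of -0.10. Of 17 mitochondrial genes 8 were above 0, with a median of -0.02, and the median over all genes was -0.01. The cytosolic median changed sign with a single library, to 0.06 without Small 1 and 0.09 without Medium 2. It was -0.24 without Small 2 and -0.22 without Medium 1. The mitochondrial median ranged from -0.14 without Small 2 to 0.18 without Small 1. Both Medium libraries lay above both Small libraries for 5 of 38 synthetases, against 16.6% of all genes, and below for 7, against 14.3%. Within both numbers Medium was the higher library for 9 of 38 and the lower for 15, against 30.1% and 29.3%. No synthetase was called by edgeR, against 0% of all genes, and all adjusted p were 1.00. Lars2 was the only synthetase with a higher value at an unadjusted p under 0.05, against 2.81% of all genes, and Vars2 the only lower one, against 1.52%. Vars2 had a log2 fold change of -0.68 (SE 0.26, unadjusted p = 0.034). With the block in edgeR, 2 of 38 (Eprs and Lars2) were higher at that level and 3 (Vars, Vars2 and Wars) lower, against 6.11% and 6.39%, and 0 were called. With DESeq2 and the block, 0 were called higher, against 2.41% of genes with an adjusted p, and Vars alone was called lower, against 2.13%. The log2 fold change of Vars there was -0.46 (SE 0.13, adjusted p = 0.0205). In edgeR it was -0.48 (SE 0.26), and it was -0.26 with offsets for GC content and length (adjusted p = 0.579 with the block) and -0.23 without Small 2.

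Lars2, the mitochondrial leucyl enzyme (chr9:123366927-123462666), had the largest difference of any synthetase between gates. It had 274 and 204 CPM in Large, 481 and 457 CPM in Medium, 167 and 164 CPM in Small, and 199 and 507 CPM in All. Medium lay above Large and Small without overlap, Large lay above Small, and the All libraries spanned nearly the whole range. The log2 fold change was 1.5 (SE 0.42) for Medium against Small, with an unadjusted edgeR p of 0.0090 and an adjusted p of 1.00. For Large against Medium it was -0.97 (SE 0.41, unadjusted p = 0.051), and for Large against Small 0.53 (SE 0.41). With no filter on low counts Medium against Small was called (edgeR adjusted p = 0.00177), and over the 19 other alternatives the adjusted p ran from 0.109 to 1.00. Without any single library the log2 fold change stayed between 1.46 and 1.56.

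Ribosomal RNA transcripts moved with Lars2 in part. They were looked up after the values of Lars2 were seen. The mitochondrial small ribosomal RNA mt-Rnr1 had 466 and 275 CPM in Large, 893 and 707 CPM in Medium, 294 and 427 CPM in Small, and 364 and 416 CPM in All. The large one, mt-Rnr2, had 1868 and 1730 CPM in Large, 3311 and 2937 CPM in Medium, 1347 and 2040 CPM in Small, and 1813 and 2239 CPM in All. Both were highest in Medium, but Small 2 lay above Large 2 in both, unlike for Lars2. Gm42418, a gene annotated over nuclear ribosomal RNA sequence, had 1.64 and 1.84 CPM in Large, 7.00 and 7.76 CPM in Medium, 1.49 and 4.86 CPM in Small, and 3.13 and 17.7 CPM in All, and was highest in All 2, as Lars2 was. Gm26917 had 34.6 and 45.6 CPM in Large, 51.5 and 57.9 CPM in Medium, 26.2 and 138 CPM in Small, and 46.5 and 82.8 CPM in All. It was highest in Small 2, where Lars2 was lowest. Lars2 transcripts shared 0 stretches of 31 bases with mt-Rnr1, mt-Rnr2, Gm42418 or Gm26917. Only exact stretches of these genes were searched, so this does not cover similar sequence or other ribosomal RNA. The part of ribosomal RNA in the Lars2 values was not tested.

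**Figure D3:**
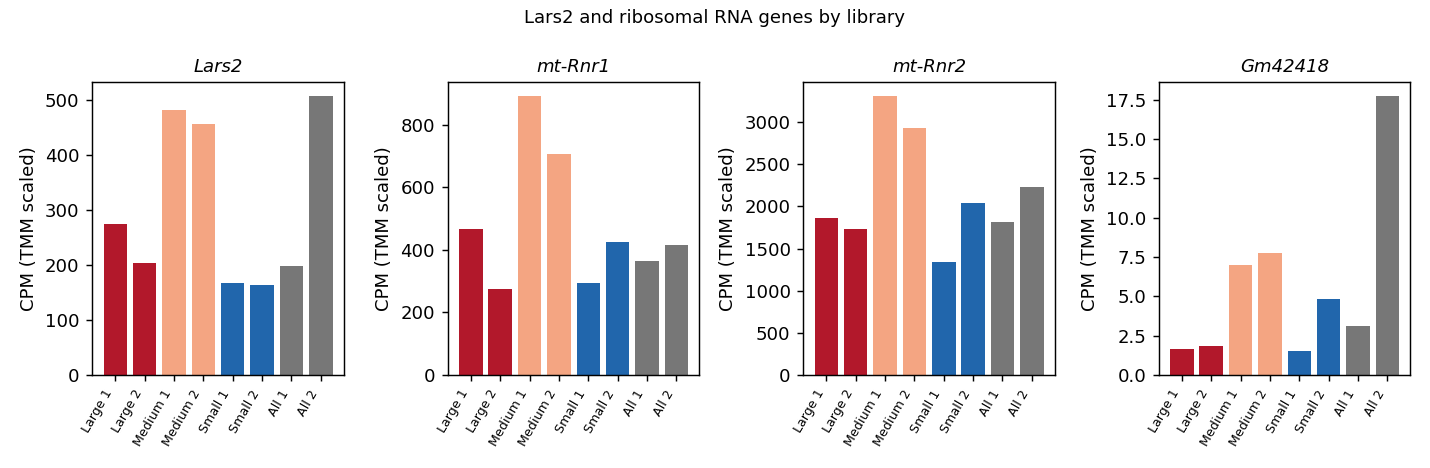
CPM of Lars2, mt-Rnr1, mt-Rnr2 and Gm42418 in each library, Large at the left and All at the right, with each axis starting at 0. The Medium libraries are the highest size gate in every panel. All 2 is highest for Lars2 (507) and Gm42418 (17.7) but not for the mitochondrial ribosomal RNAs.

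Classes were next compared by their summed TPM, in which abundant genes weigh most. Cytosolic genes summed to 2272 and 1919 TPM in Large, 1850 and 1678 TPM in Medium, 1974 and 1927 TPM in Small, and 1819 and 1719 TPM in All. Large 1 was the highest library, but Large 2 lay just below both Small libraries. Lars2 alone held 15.8% and 14.8% of the mitochondrial sum in Large, 29.4% and 30.6% in Medium, 11.01% and 13.8% in Small, and 14.3% and 33.1% in All. The ratio of the cytosolic sum to that of all 17 mitochondrial genes was 3.804 and 3.718 in Large, 2.97 and 2.89 in Medium, 3.45 and 3.725 in Small, and 3.65 and 2.64 in All. Medium was the lowest size gate, and Large and Small overlapped. Without Lars2, a removal chosen after its values were seen, mitochondrial genes summed to 503 and 440 TPM in Large, 439 and 403 TPM in Medium, 509 and 446 TPM in Small, and 427 and 435 TPM in All. The ratio of the cytosolic to this mitochondrial sum was 4.52 and 4.36 in Large, 4.21 and 4.16 in Medium, 3.88 and 4.32 in Small, and 4.26 and 3.95 in All. On this measure Large had the highest ratio, 4.44 ± 0.11, against 4.19 ± 0.04 in Medium, 4.10 ± 0.31 in Small and 4.10 ± 0.22 in All (SD, n = 2 each). The margin of Large 2 over Small 2 was smaller than the SD of Small.

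**Figure D4:**
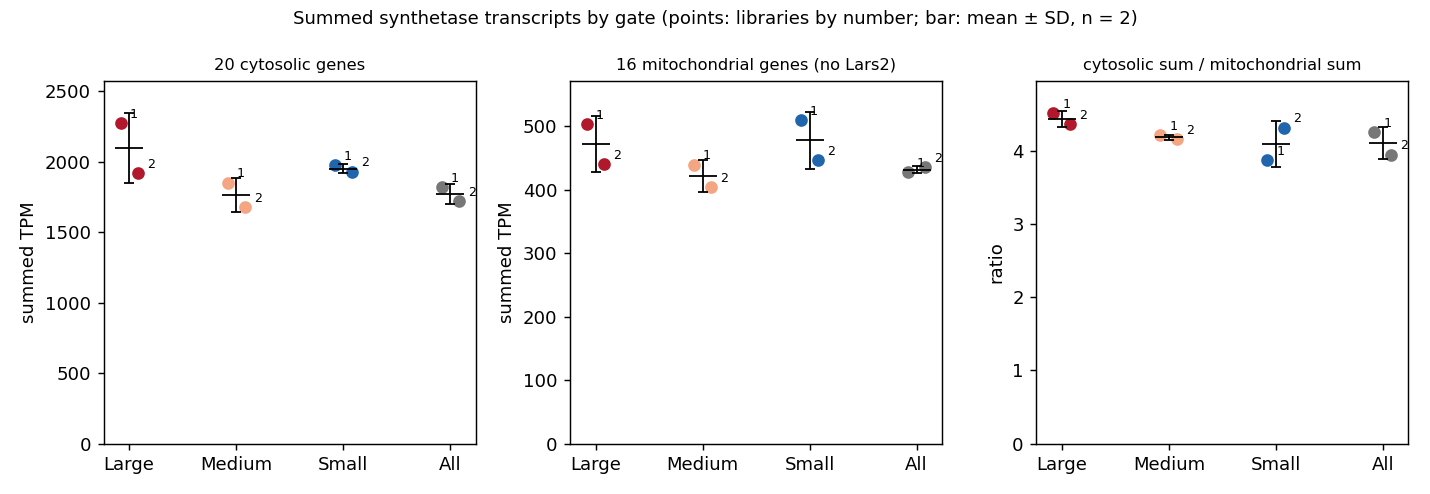
Summed TPM of 20 cytosolic genes (left) and 16 mitochondrial genes without Lars2 (middle), and their ratio (right), by gate with Large at the left. Points are libraries with their number, and bars are mean ± SD (n = 2). Large has both ratios above all other libraries, from 4.36 to 4.52.

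Across the 3 size gates, Large was the highest for 18 of 20 cytosolic genes in number 1 and 16 in number 2. Among all 16066 genes these counts were 5380 and 5542. For mitochondrial genes Large was highest for 11 and 8 of 17. A rise at each step from Small over Medium to Large was less common, in 6 and 7 cytosolic genes (30.0% and 35.0%, against 15.7% and 18.7% of all genes) and in 5 and 5 mitochondrial genes. Synthetase levels also differed by number. The median log2 difference of number 1 minus number 2 was 0.33 for cytosolic genes, of which 18 of 20 were higher in number 1, 0.16 for mitochondrial genes, and 0.00 over all genes.

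Other genes around tRNA charging were counted from fixed lists for Large against Small. Among cytosolic elongation factors, which bring charged tRNAs to the ribosome and move them through it, 4 of 5 had a log2 fold change above 0, with a median of 0.44, and 2 were higher with an unadjusted edgeR p under 0.05, against 1.77% of all genes. These were the eEF1B subunits Eef1b2 and Eef1g. Eef1b2 had 325 and 281 CPM in Large, 317 and 311 CPM in Medium, 199.7 and 203 CPM in Small, and 242 and 265 CPM in All. Small was the lowest group, and the log2 fold change of Large against Small was 0.59 (SE 0.17, edgeR adjusted p = 0.975). Eef1g had a log2 fold change of 0.44 (SE 0.17), whereas Vars, the synthetase that binds this factor, was at -0.22. Eef1a1, which carries the tRNA itself, was at 0.03.

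Factors that edit, mature or export tRNA had a median of 0.16, with 9 of 11 above 0. Aarsd1, which clears mischarged tRNA for alanine, was at 0.85 (SE 0.52), and Trnt1, which adds the CCA end, at 0.49 (SE 0.30). Users of charged tRNA in mitochondria had a median of 0.09, with 9 of 10 above 0; the elongation factor Tufm was at 0.41 (SE 0.25) and its exchange factor Tsfm at 0.73 (SE 0.65). The amino acid response list, ATF4 targets other than synthetases with Atf4 itself, had a median of 0.10, with 11 of 18 above 0. Its members spread widely: Mthfd2, a mitochondrial folate enzyme, was at 1.16 (SE 0.85), Atf4 at 0.05 (SE 0.35) and Sesn2, an inhibitor of mTORC1 signalling, at -0.99 (SE 0.42, unadjusted p = 0.049). Sesn2 was the only member of that list under 0.05, lower in Large, against 1.38% of all genes lower. The 12 cytosolic synthetases reported as ATF4 targets had a median of 0.31 and the 8 others 0.24. Split by the promoter letters shown above, the 5 genes with TGATGNAA had a median of 0.26, from 0.22 to 0.43, and the 8 without it 0.28, from 0.17 to 0.42. For Large against Medium these medians were 0.38 and 0.31. Cars, Hars, Lars, Nars, Rars, Vars and Wars had no promoter window and were in neither set. Among them were the largest cytosolic values for Large against Small (Hars 0.58, Nars 0.55 and Rars 0.55). The cytosolic genes below 0, Vars (-0.22) and Wars (-0.23), were also left out. By enzyme fold, the 19 class I genes had a median of 0.26 and the 19 class II genes 0.29 for Large against Small. Eprs was counted in class I only, although its prolyl part belongs to class II.

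Proliferation and blood cell markers differed between the same libraries. Genes of the G1/S phase summed to 6157 and 5501 CPM in Large, 4070 and 2534 CPM in Medium, 4544 and 2649 CPM in Small, and 4133 and 2188 CPM in All, with 12 of 12 above 0 for Large against Small (median log2 fold change 0.82). G2/M genes summed to 2264 and 1402 CPM in Large, 1425 and 594 CPM in Medium, 1600.1 and 566 CPM in Small, and 1813 and 331 CPM in All. HSC identity genes, 15 of 15 detected, ran the other way, with 1013 and 2158 CPM in Large, 2025 and 2965 CPM in Medium, 1890 and 3680 CPM in Small, and 1911 and 4006 CPM in All. B cell markers summed to 343 CPM in Large 2 and to between 40.9 and 144 CPM in the other libraries. By the mean over groups, 18 of 20 cytosolic but 12 of 17 mitochondrial synthetases were higher in the libraries numbered 1. Those libraries also had the higher granulocyte and monocyte sums, 25108 to 57385 CPM against 3587 to 23629 CPM in those numbered 2. G2/M, erythroid (3852 to 5103 against 2040 to 2570 CPM) and T and NK cell sums (395 to 975 against 62.1 to 375 CPM) were also higher in number 1. Macrophage and dendritic sums were lower in number 1 (222 to 484 against 690 to 987 CPM), as were HSC identity and B cell sums. Mast cell, basophil and eosinophil sums and megakaryocyte sums overlapped between the numbers. The part of these genes in the synthetase values was not tested.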

How the data were processed

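The authors deposited 2 tables, RSEM's estimated counts per gene as unscaled whole numbers, and log2(TPM + 1) values. STAR 2.5.3a, RSEM 1.3.0, SAMtools 1.3 and build mm10 are named per the submitters' processing notes, and cDNA came from a low-input kit per the labels' protocols. No source used here says whether counting used strand. Of 50686 gene IDs, 50376 matched a GENCODE M21 symbol; the other 310 took up to 0.131% of the counts in a library. Gene coordinates are those of GENCODE M21 (GRCm38).

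Differences were tested by quasi-likelihood in edgeR (edgeR 4.0.16 under R 4.3.3, TMM, robust, group only, all 8 libraries, 16066 genes with filterByExpr at a minimum count of 10), checked on simulated data. With the spread of these data, 0 of 200 genes changed 2-fold between Large and Small were recovered, and 81 of 200 changed 4-fold. With a low simulated spread, 172 and 200 were recovered. A gene that was not called may thus still differ. P-values are two-sided, with Benjamini-Hochberg adjustment over all genes and a threshold of 0.05. SDs have n = 2. Alternatives used DESeq2 1.42.0 and limma 3.58.1 (voom, and trend on log2(TPM + 1), pseudocount 1). The labels number libraries without saying what a number shares. The differences of number 1 minus number 2 correlated across genes between all pairs of groups (correlations 0.358 to 0.439), so numbers were treated as pairing libraries in the blocked fits.

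Members and lists were chosen with earlier results of these data known. Values in every library are given for the 6 genes of each class with the smallest p in Large against Small, the 2 smallest in each other comparison, the highest and lowest TPM, and Gars, Kars, Eprs, Qars, Ears2 and Tarsl2. 1 synthetase counts in the class totals but is not reported by name or drawn here. HSCs of drug-treated mice were not analysed here.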

Additional observations from a re-analysis of the deposited data

How the results depend on the processing

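With the replicate number as a block edgeR called 0 genes in each of the 3 comparisons, as without it; the cytosolic medians (log2) were 0.30 for Large against Small, 0.36 for Large against Medium and -0.09 for Medium against Small. DESeq2 with the block called 1417, 923 and 518 genes in that order, among them 5, 6 and 1 synthetases, and limma-voom with the block called 0. DESeq2 without it called 10, 2 and 43 genes, and edgeR with no filter on low counts 55, 58 and 73, of which 1 was a synthetase, Lars2 in Medium against Small. Offsets for GC content and length with the block called 24 genes in Large against Small and 10 in Large against Medium, and limma-trend on log2(TPM + 1) called 1 in each. On that scale the mitochondrial median of Medium against Small was -0.18. Vars2 in Large against Small was 0.01 with those offsets, with and without the block. The cause was not tested. Leaving out each library in turn called 0 genes throughout. The cytosolic medians then ran from 0.07 to 0.48 for Large against Small, from 0.12 to 0.58 for Large against Medium and from -0.24 to 0.09 for Medium against Small. The mitochondrial medians ran from -0.04 to 0.35, from -0.06 to 0.36 and from -0.14 to 0.18. Values under 10 CPM, as for Pars2, rest on few counts.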
